A study of Arabidopsis thaliana with 6 samples.

Results

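A set of 83 nuclear loci stood high together in 1 library of iron-supplied anthers, control 3, and 1 library of iron-starved anthers, Fe-deficient 3, and low in the other 4 libraries. The files hold 33027 loci. Members were chosen by their measured levels in CPM, the estimated count scaled to the library total. A locus was a member when its level was at least 2 CPM in each of these 2 libraries and, in each, at least 3 times the highest level among control 1, control 2, Fe-deficient 1 and Fe-deficient 2. Loci of the mitochondrial and chloroplast genomes were left out, as were AP1 and 3 small-subunit genes of rubisco. Of these left-out loci, 3 met both thresholds (AP1, RBCS1B and RBCS2B). Of 18519 nuclear loci with at least 2 CPM in both libraries, 83 were members, which is 0.448%. The measured levels themselves chose the members, so their height in control 3 and Fe-deficient 3 is a description and carries no test.

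The 6 mRNA libraries were made from anthers of Col-0, the common wild-type strain of Arabidopsis thaliana, and read from a single end. All plants first grew for 28 days with iron, 10 on agar plates and 18 in hydroponics. They were then kept for 18 days in medium with NaFe-EDTA (control, 3 libraries) or in medium without it (Fe-deficient, 3 libraries). What the library number stands for, and whether different plants lie behind each library, is not in the labels. A p-value here reflects how much these 6 libraries vary, and that variation could be purely technical. Estimated counts per library summed to between 16818176 and 22710901, and the fewest counts of a member in control 3 or Fe-deficient 3 were 49, for AT5G56840. The homeotic genes that specify stamens were present at similar levels in all 6 libraries. AP3 lay between 225 and 316 CPM and PI between 351 and 467 CPM, although control 3 was the lowest of the 6 for PI and Fe-deficient 3 for AP3. Iron-deficiency genes did stand apart in 1 library: BTS, an E3 ligase of the iron response, had 908 CPM in Fe-deficient 3 against at most 89.2 CPM elsewhere. Its level in control 3 was 84.6 CPM.

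Anthers of Arabidopsis are attached by a filament that carries a vein, and the flower bud around them holds sepals, petals, a pistil and a pedicel. Green organs are known for chloroplast metabolism, guard cells, surface wax and the glucosinolate defence of the cabbage family, in which a stored thioglucoside meets the enzyme myrosinase when tissue is damaged. Leaves and stems also hold many receptors of the immune system, on the cell surface and inside the cell. In bulk samples, more cells of a type and more RNA per cell cannot be told apart.

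The members with the highest levels were the myrosinase genes TGG2 and TGG1 on chromosome 5. TGG2 lies on the plus strand and TGG1 on the minus strand, and their lower coordinates are 6744 bases apart. Their upstream sequences are shown because the pair led the set and had the same order of control and Fe-deficient libraries among the 4 low ones. Both come from the RefSeq sequence of TAIR10.1 and are the 250 bases before each annotated gene start, chr5:9072458-9072707 on the plus strand for TGG2 and chr5:9082385-9082634 on the minus strand for TGG1. Capitals mark runs of at least 10 bases that both hold. The longest of them has 21 bases.
TGG2: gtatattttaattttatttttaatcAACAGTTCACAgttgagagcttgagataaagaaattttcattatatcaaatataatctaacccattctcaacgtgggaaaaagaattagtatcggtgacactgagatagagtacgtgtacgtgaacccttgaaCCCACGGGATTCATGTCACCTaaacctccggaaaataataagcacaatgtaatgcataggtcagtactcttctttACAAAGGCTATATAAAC
TGG1: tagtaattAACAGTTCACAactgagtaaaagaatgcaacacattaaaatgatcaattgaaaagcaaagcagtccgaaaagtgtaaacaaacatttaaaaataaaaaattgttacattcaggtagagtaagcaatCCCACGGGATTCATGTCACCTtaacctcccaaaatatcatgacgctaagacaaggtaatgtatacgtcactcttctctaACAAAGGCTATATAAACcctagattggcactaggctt

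The myrosinases of guard cells and phloem idioblasts formed the top of the set. TGG2 had 228, 184 and 956 CPM in controls 1, 2 and 3, and 85.3, 54.2 and 791 CPM in Fe-deficient 1, 2 and 3. TGG1 had 146, 127 and 698 CPM in the controls and 61.6, 40.2 and 763 CPM in the Fe-deficient libraries. In both genes the 2 high libraries lay close together, and controls 1 and 2 lay above Fe-deficient 1 and 2. Reads of such similar genes may be divided between them by the counting. ESM1, which shifts glucosinolate breakdown towards isothiocyanates, had 65.9 CPM in control 3 and 80.6 CPM in Fe-deficient 3. Its other libraries were at 3.19, 2.98, 9.99 and 0.876 CPM, in the order control 1, control 2, Fe-deficient 1, Fe-deficient 2.

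**Figure D1:**
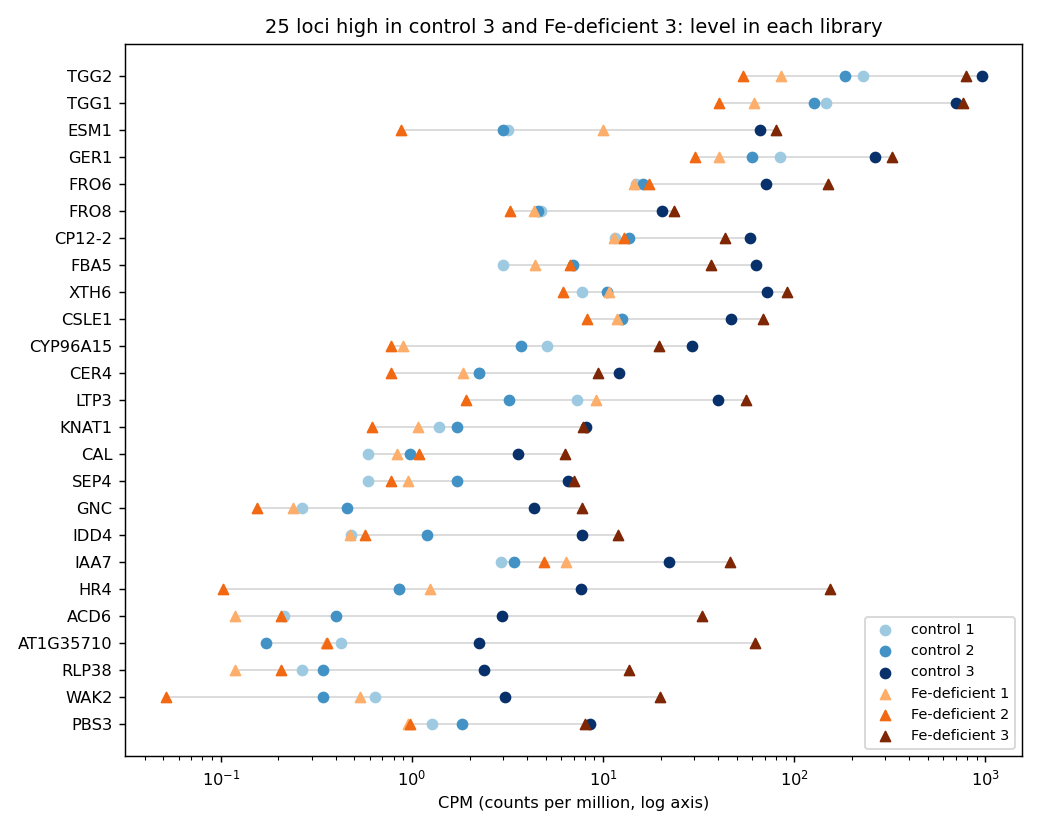
Level of 25 of the 83 loci in each of the 6 libraries, in CPM on a log axis (circles, controls; triangles, Fe-deficient). The darkest circle (control 3) and the darkest triangle (Fe-deficient 3) lie to the right of the other 4 symbols in every row, as the rule requires; TGG2 reaches 956 CPM and GNC 7.71 CPM in Fe-deficient 3.

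Genes of green tissue and of ferric reduction were a second group. CP12-2 encodes a small protein that binds Calvin cycle enzymes in the dark. It had 11.6, 13.6 and 58.8 CPM in controls 1 to 3 and 11.4, 12.8 and 43.6 CPM in Fe-deficient 1 to 3. FBA5, a fructose-bisphosphate aldolase, had 63.0 CPM in control 3 and 36.8 CPM in Fe-deficient 3, against at most 6.92 CPM in the other 4. FRO6, a ferric reductase of the plasma membrane in shoots, had 14.8, 16.1 and 71.1 CPM in the controls and 14.5, 17.4 and 150.4 CPM in the Fe-deficient libraries. Its 4 low libraries differed little, with no separation by iron supply. FRO8, another member of that family, had 20.3 and 23.4 CPM in the high libraries and 3.25 to 4.74 CPM in the others. GNC, a GATA factor that promotes chloroplast development, had the largest ratio of all members. Its lower level in the 2 high libraries was 9.52 times the highest of the other 4 (4.36 and 7.71 CPM against at most 0.458 CPM).

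Surface and wall genes followed. GER1, a germin-like protein of the cell wall space, had 84.4, 59.8 and 264 CPM in the controls and 40.5, 30.1 and 326 CPM in the Fe-deficient libraries. XTH6, a xyloglucan-remodelling enzyme, had 71.7 and 91.9 CPM in control 3 and Fe-deficient 3 and 6.18 to 10.7 CPM elsewhere. The wax genes CYP96A15 and CER4 were lower, and unlike GER1 and XTH6 they stood higher in control 3 than in Fe-deficient 3. CYP96A15 is the mid-chain alkane hydroxylase MAH1 of stem wax, with 29.3 CPM in control 3 and 19.7 CPM in Fe-deficient 3. It was at 5.05 and 3.72 CPM in controls 1 and 2 and at 0.892 and 0.773 CPM in Fe-deficient 1 and 2. CER4, which makes the primary alcohols of wax, had 12.1 and 9.37 CPM in the high libraries against at most 2.23 CPM. On the list of 18 epidermis and cuticle genes, 4 were above the other libraries in both, CYP96A15 was the only member, and the alkane-forming enzyme gene CER1 had 470 to 677 CPM over the 6 libraries. AT2G45180, annotated as a lipid-transfer type protein, had 7.56, 15.5 and 67.5 CPM in the controls and 6.36, 11.5 and 150.1 CPM in the Fe-deficient libraries. CSLE1, of the cellulose synthase-like family, had 46.8 and 68.9 CPM in control 3 and Fe-deficient 3 and 8.19 to 12.5 CPM elsewhere. Both were low to a similar degree in the other 4. The group further held LTP3, CYP96A4 and AT3G53980.

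Regulators of the shoot and flower were low in level. KNAT1, a homeobox gene of stems and pedicels, had 1.38, 1.72 and 8.10 CPM in controls 1 to 3 and 1.07, 0.618 and 7.80 CPM in Fe-deficient 1 to 3. SEP4, a MADS-box gene of flower development, had 6.52 and 7.02 CPM in the high libraries against at most 1.72 CPM. CAL, a close relative of AP1 in floral meristem identity, had 3.57 and 6.32 CPM against at most 1.08 CPM. KNAT1 and CAL stand on the meristem list and SEP4 on the perianth list. IAA7, an auxin response repressor, had 22.2 CPM in control 3 and 46.4 CPM in Fe-deficient 3, and 2.93 to 6.36 CPM in the others. The zinc-finger gene IDD4 had 7.79 CPM in control 3 and 0.476 to 1.2 CPM in the 4 low libraries. LOV1, a NAC factor, had 8.32 and 9.14 CPM against at most 2.58 CPM. The remaining regulators were AT4G01460 of the bHLH type, the SAUR gene AT2G21220 and the myb-like AT5G56840, whose lower coordinate is 8578 bases from that of GNC.

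Receptors and defence genes made up 23 of the 83 loci. This grouping was set by hand after the values had been seen. Inside the cell act 7 of them, with annotations of the disease resistance, toll/interleukin receptor or RPW8 type. Another 13 are receptors or receptor-like kinases of the cell surface, and 3 are other defence genes. HR4, a homolog of the mildew resistance gene RPW8, had 0.851, 0.858 and 7.66 CPM in controls 1 to 3 and 1.25, 0.103 and 153 CPM in Fe-deficient 1 to 3. ACD6, which promotes salicylate-dependent defence, had 2.95 CPM in control 3 and 32.7 CPM in Fe-deficient 3, with 0.119 to 0.401 CPM in the other 4. PBS3, an enzyme of salicylate synthesis, was even between the 2 high libraries, at 8.54 and 8.08 CPM. AT1G58602, a disease resistance gene with nucleotide-binding and leucine-rich repeat domains, had 7.11, 5.92 and 36.0 CPM in the controls and 2.86, 1.78 and 73.7 CPM in the Fe-deficient libraries. On the cell surface, the leucine-rich repeat kinase gene AT1G51805 had 10.7 and 32.4 CPM in the high libraries against at most 1.43 CPM. RLP38, a receptor-like protein gene, had 2.38 and 13.7 CPM against at most 0.343 CPM. All of these were higher in Fe-deficient 3 than in control 3 except PBS3. RLP42, a receptor for fungal polygalacturonases, had 6.11 and 13.3 CPM against at most 1.75 CPM. WAK2, a wall-associated kinase that binds pectin, had 3.08 and 19.8 CPM against at most 0.638 CPM. By annotation words, 7 of the 82 protein-coding members (8.54%) named a disease resistance, toll/interleukin or RPW8 protein, as did 0.592% of 18084 protein-coding loci with at least 2 CPM in both libraries. A receptor or leucine-rich repeat of any kind, or a wall-associated or lectin kinase, was named for 17.1% of members and 2.15% of those loci. The 2 shares overlap, as TIR counts in both. These words were chosen after the members were known, and the shares are a description.

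Genes of the salicylate defence list were not alike. PR1 and PR2, which encode secreted defence proteins, had 0 CPM in control 3 and 12.8 and 25.3 CPM in Fe-deficient 3. None of the 10 genes of that list was a member. The 4 low libraries had at most 0.119 CPM of either. PAD4, a regulator of salicylate signalling, was above all 4 low libraries in both, at 1.67 CPM in control 3 and 6.32 CPM in Fe-deficient 3 against at most 0.801 CPM. The transcription factor gene WRKY70 was so too, by less: its level in control 3 was 1.17 times the highest of the 4, which was 21.4 CPM, and Fe-deficient 3 had 54.9 CPM.

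The other loci, 27 without a group and 7 of transport, were mostly low. AT4G23680, of the polyketide cyclase and lipid transport superfamily, had 18.5, 22.9 and 108 CPM in controls 1 to 3 and 31.9, 22.7 and 178 CPM in Fe-deficient 1 to 3. AT5G44020, annotated as an acid phosphatase, had 21.7 CPM in control 3 and 118 CPM in Fe-deficient 3, against at most 3.83 CPM. AT2G39850, a subtilisin-like protease gene, was nearly equal in the high libraries at 20.5 and 20.7 CPM, 7.79 times the highest of the others. Of the transport genes, the amino acid permease gene AAP7 had 11.5 and 13.2 CPM against at most 2.46 CPM.

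**Figure D2:**
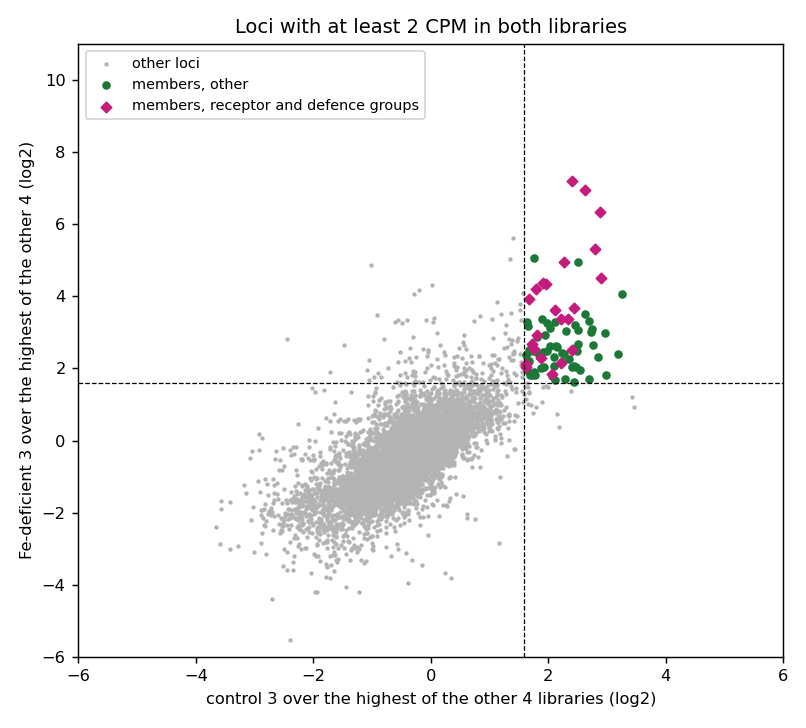
Each of 18519 loci with at least 2 CPM in control 3 and Fe-deficient 3, placed by its level in control 3 (x) and Fe-deficient 3 (y) over the highest of the other 4 libraries, on log2 scales. The dashed lines mark the threshold of 3 times; the 83 members fill the upper right corner, and the receptor and defence genes among them (diamonds) spread upwards, with GNC farthest to the right at 9.52 times or more in both.

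With the same thresholds applied to control 3 alone, 109 loci passed, and 83 of them (76.1%) passed in Fe-deficient 3 too. Fe-deficient 3 alone passed for 528 loci, of which the 83 are 15.7%. Both sets are measured against the same 4 libraries, so the sharing is a description. Just inside the threshold stood AT4G19530 (3.06 times), AT1G61190 (3.06 times) and AT1G15125 (3.08 times). Just outside stood the germin-like gene GER3 (2.99 times), the receptor kinase gene CRK14 (2.96 times) and CIL (2.95 times). GER3 is a germin-like gene as GER1 is, and CRK14 encodes a cysteine-rich receptor-like kinase, as do the members CRK40 and EMB1290.

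Marker lists of tissues and stages were read for the same pattern. Genes with a mean of at least 2 CPM over all 6 libraries were counted. That mean includes control 3 and Fe-deficient 3, so a gene can pass through its height there, as KNAT1, SEP4 and CAL did. Each such list gene was asked whether control 3 and Fe-deficient 3 were both above each of the other 4 libraries. This held for 14.9% of 19112 nuclear loci kept by the same mean. The opposite, both below each of the other 4, held for 4.47%. The first order, both above, held for 7 of 7 stomata and trichome genes, TGG1 and TGG2 included. That list holds 15 genes. Of those under the mean, SPCH, EPF1, HT1 and SLAC1 had this order, and MUTE, EPF2, GL1 and GL3 did not. No margin was asked: STOMAGEN counted with 6.14 CPM in Fe-deficient 3 against 5.89 CPM in control 2. The first order held for 7 of 10 meristem and flower initiation genes, where KNAT6 counted at 1.01 times. On the vasculature list it held for 9 of 18 and on the photosynthesis list for 13 of 30. It held for 0 of 6 stamen identity genes, 0 of 9 early anther genes, 0 of 13 meiosis genes, 0 of 17 tapetum genes and 0 of 17 late pollen genes. Not all anther lists were at 0: on the endothecium and filament list it held for 3 of 11, the jasmonate synthesis gene OPR3 and the auxin response factor genes ARF6 and ARF8. It held for 2 of 8 perianth genes, 4 of 18 epidermis genes, 2 of 9 wound and jasmonate genes, 1 of 3 root genes, 1 of 7 salicylate genes, 1 of 9 carpel genes and 1 of 14 iron genes. It held for none of the pollen coat, mitosis, circadian, heat, hypoxia and cold, seed and nectary genes. Both were below the others for 2 of the 6 stamen identity genes and 3 of the 9 early anther genes. The same held for 2 of 8 pollen coat genes and 1 of 2 nectary genes. It held for 1 gene each on the meristem, carpel, meiosis, mitosis, wound and heat, hypoxia and cold lists. Members of the 83 on any list numbered 7: TGG1, TGG2, ESM1, CYP96A15, KNAT1, SEP4 and CAL. The rule itself placed these 7 above the other 4 libraries, so they add no evidence for their lists. They account for 2 of the stomata genes and 2 of the meristem genes counted as above. On the perianth, epidermis and wound lists they account for 1 each. The vasculature and photosynthesis lists held 0 members. The lists were drawn up with earlier results of these libraries known.

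**Figure D3:**
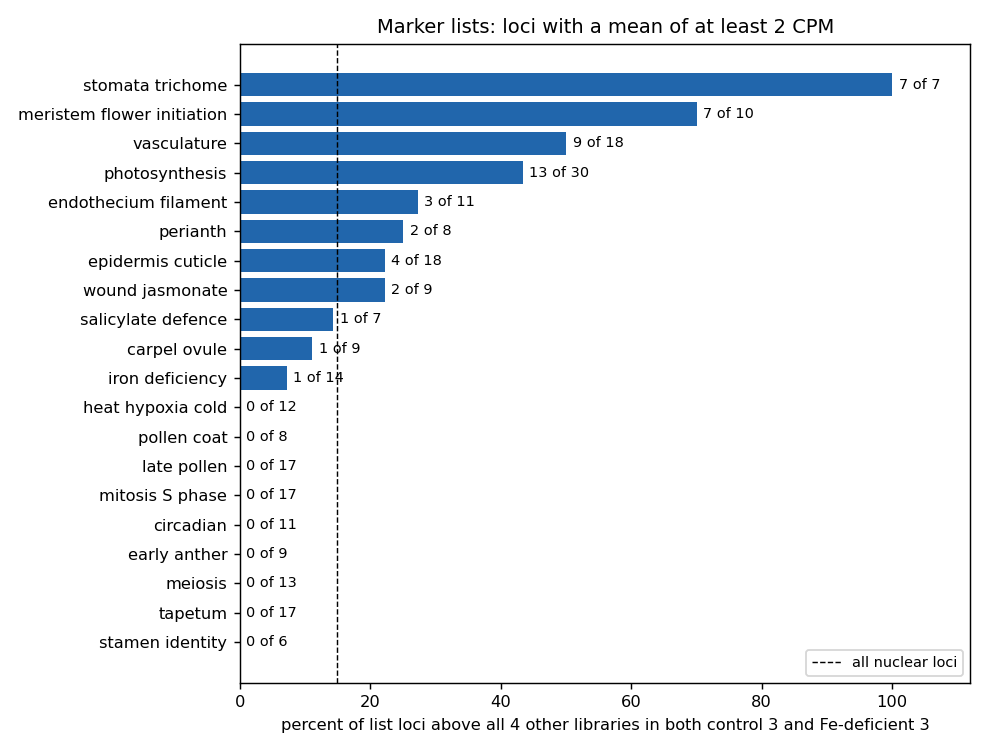
Share of the loci of each marker list for which both control 3 and Fe-deficient 3 lay above all 4 other libraries. Shown are lists with at least 5 loci at a mean of 2 CPM or more, a mean that includes control 3 and Fe-deficient 3. Counts stand beside the bars and the dashed line marks 14.9% over all nuclear loci. The stomata, meristem, vasculature and photosynthesis lists lie farthest above the line. The endothecium and filament, perianth, epidermis and wound lists are at 3 of 11, 2 of 8, 4 of 18 and 2 of 9. The perianth, epidermis and wound counts each include 1 member, and the stomata and meristem counts 2 each. The rule placed those members above in advance, so the place of these lists rests partly on it. The stamen identity, early anther, meiosis, tapetum and pollen lists are at 0.

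Several list genes that fell short of the thresholds showed the same order at smaller ratios. FAMA, the regulator of guard cell fate, had 4.04, 3.38 and 7.97 CPM in controls 1 to 3 and 2.68, 3.30 and 9.55 CPM in Fe-deficient 1 to 3. The meristem gene STM had 4.26, 3.09 and 8.28 CPM in the controls and 1.55, 1.13 and 12.1 CPM in the Fe-deficient libraries. SUC2, the sucrose loader of phloem companion cells, had 63.9 CPM in control 3 and 108 CPM in Fe-deficient 3, against 22.2 to 50.4 CPM. XCP2, a protease of xylem vessels, had 24.5 and 33.6 CPM against at most 15.8 CPM. Vein genes of the secondary wall went otherwise: the cellulose synthase gene CESA4 was highest in Fe-deficient 1 and 2, at 270 and 315 CPM, and had 228 and 136 CPM in control 3 and Fe-deficient 3.

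Photosynthesis genes were not alike. The rubisco activase gene RCA had 323, 255 and 810 CPM in controls 1 to 3 and 249, 175 and 535 CPM in Fe-deficient 1 to 3. CA1, a chloroplast carbonic anhydrase, reached 579 CPM in control 3 and 125 CPM in Fe-deficient 3, against 26.8 to 54.1 CPM. The light-harvesting gene LHCB3 lay between 167 and 224 CPM over all 6 libraries. The median photosynthesis gene was 1.55 times the mean of the other 4 libraries in control 3 and 1.29 times in Fe-deficient 3, where the median nuclear locus was at 1.03 and 1.04 times.

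Several lists held both silent and well-expressed genes. Of 12 root genes 9 were below 1 CPM in every library, and the root hair genes RHD6, EXPA7 and EXPA18 had 0 CPM in all 6. On the same list COBL9 had 11.4 to 46.0 CPM and SCR 14.6 to 26.7 CPM. Of 9 seed genes 5 were below 1 CPM in every library, and FUS3, a seed regulator, reached 15.4 CPM in Fe-deficient 1. On the nectary list SWEET9, a sugar transporter gene, had at most 0.132 CPM and CWINV4, an invertase gene, 127 to 289 CPM. On the perianth list RBE had at most 0.172 CPM and BPEP 27.5 to 182 CPM. On the meristem list CLV3 had at most 0.0572 CPM and WUS 47.1 to 125 CPM. Neither COBL9, CWINV4, BPEP nor WUS had control 3 and Fe-deficient 3 above the other 4 libraries. Of 9 carpel and ovule genes 1 was above and 1 below the others in both libraries, and STK, an ovule gene, had 1.81, 3.83 and 0.660 CPM in the controls and 0.892, 0.412 and 0.415 CPM in the Fe-deficient libraries. Late pollen genes summed to 989, 4299 and 4246 CPM in controls 1 to 3 and 9359, 10824 and 4177 CPM in Fe-deficient 1 to 3. Tapetum genes summed to 5876 and 4061 CPM in control 3 and Fe-deficient 3, within the 2476 to 9972 CPM of the others. The part of other organs or of anther age in the pattern of the 83 loci was not tested.

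Fe-deficient 3 exceeded control 3 at many members. The rule did not order these 2 libraries, but it kept loci extreme in both. Many more loci passed it in Fe-deficient 3 alone (528) than in control 3 alone (109). The shares over all loci below come from loci not chosen in this way, so they are not a like comparison. The comparison is of 1 library with 1 library and has no replicate check. Of the 83 loci, 24 were at least 2 times higher in Fe-deficient 3, as were 2.94% of 18519 loci with at least 2 CPM in both. At least 2 times higher in control 3 was 1 member, AT1G78450, a SOUL heme-binding family gene (5.42 against 2.40 CPM), as were 2.05% of those loci. The largest ratios belonged to AT1G35710, a leucine-rich repeat kinase gene, at 27.8 times (62.4 against 2.25 CPM), and HR4 (153 against 7.66 CPM). ACD6 followed at 11.1 times and AT5G42530, of unknown function, at 9.93 times. Among the 23 receptor and defence genes 15 passed 2 times, with a median ratio of 2.35. Among the other 60 loci 9 passed, with a median of 1.23. The lowest ratios after AT1G78450 were those of UMAMIT47, an amino acid exporter family gene (6.69 CPM in control 3, 3.37 in Fe-deficient 3), AT3G50270 and FBA5. The myrosinase genes were at 0.827 times (TGG2) and 1.09 times (TGG1), and KNAT1 was at 0.963 times.

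**Figure D4:**
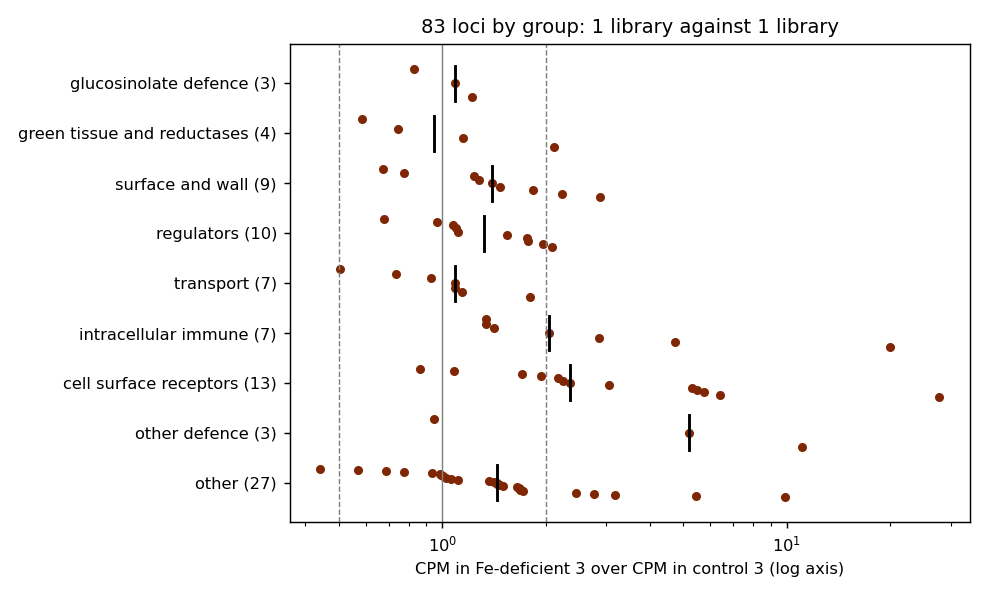
Level in Fe-deficient 3 divided by that in control 3 for each of the 83 loci (dots), by group with the number of loci, on a log axis; bars mark medians and dashed lines 0.5 and 2 times. The receptor and defence groups reach 27.8 times, and the glucosinolate and transport groups stay between 0.503 and 1.80 times.

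Iron supply was compared over all 6 libraries with edgeR's quasi-likelihood test. The rule asked for 1 library of each group to be at least 3 times above the others, which builds a large spread within both groups, so the lack of calls among members was to a large part set by their choice and says nothing about their response to iron. Of 83 members, 78 had counts in enough libraries to be tested, and 0 passed a Benjamini-Hochberg adjusted p of 0.05. Over all 21267 loci tested, 0% were called. At an unadjusted p under 0.05 edgeR had 0 members, and 7.34% of all loci were higher and 6.09% lower. For the same reason these shares are not comparable. With the replicate number as a block edgeR had 2 members higher and 3 lower of 78 at that unadjusted p, and 0 after adjustment. Of all 21267 loci 12.6% passed that p with the block, 1176 higher and 1499 lower. The block takes up part of the height in control 3 and Fe-deficient 3 on which members were chosen. These shares are therefore not comparable either. DESeq2 gave a p-value to only 62 members and called 0 of them, and it called 723 of 21193 loci. The lowest adjusted p of a member by edgeR was 0.432, for HR4, with a log2 fold change of 4.02 (SE 2.22). That value rests on Fe-deficient 3. Without this library it was -2.0, a sign set in advance by the rule, as control 3 was then the only high library. The median log2 fold change of the tested members was 0.37, with 58 of 78 positive, and over all loci it was 0.00. The median of members was 1.80 without control 3 and -1.50 without Fe-deficient 3. The rule set both signs in advance, as the high library that stayed was at least 3 times above the rest.

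Among the 4 low libraries, the rule used only the highest value and took no account of group. Controls 1 and 2 were both above Fe-deficient 1 and 2 at 31 of the 83 loci (37.3%), as at 53.7% of 18519 loci with at least 2 CPM in control 3 and Fe-deficient 3. The opposite order held for 4 members (4.82%) and 19% of those loci. These shares were read from CPM without TMM factors. In the fit of all 6 libraries the factors were 1.06 and 1.05 for controls 1 and 2. They were 0.884 and 0.909 for Fe-deficient 1 and 2. CPM without them sets Fe-deficient 1 and 2 lower against the controls, so 53.7% and 19% do not measure a response to iron. With these 4 libraries alone edgeR tested 65 members and called 0, where 0.433% of 21242 loci were called. The lowest adjusted p of a member was 0.0942 by edgeR, and at an unadjusted p under 0.05 it had 3 members higher and 7 lower in Fe-deficient anthers, where 16% of all loci tested were higher and 14% lower. TGG1, TGG2 and CYP96A15 were among the loci with controls above. Their ratio between control 3 and Fe-deficient 3 did not follow that order alike: TGG1 was slightly higher in Fe-deficient 3, the other two in control 3.

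The members lie on all 5 nuclear chromosomes, 21, 10, 16, 17 and 19 of them on chromosomes 1 to 5. Lower coordinates within 50 kb of each other were found for 3 pairs, TGG2 with TGG1, AT5G56840 with GNC and IAA7 with RLP38. Of the 83, 82 are annotated as protein-coding, and CYP705A16 is a transcribed pseudogene. Motifs were searched on both strands in the 250 bases before the gene start of the 82 coding members and of 26649 coding genes. The I-box GATAAG, known from promoters of light-regulated genes, was in 19.5% of member promoters and 12.2% of all. Among the 22 loci that met 5 times in place of 3 the share was 9.09%, below that of all genes. The outer base pairs of the CArG box, the binding site of MADS-box factors, with any 6 bases between them, were in 14.6% and 17.4%. The G-box CACGTG was in 4.88% and 6.59%, and TAAATGNA, which covers the L1 box of epidermal genes, in 13.4% and 9.98%. The evening element AAATATCT was in 2.44% and 4.85%, CCANTG, which covers the LEAFY core, in 25.6% and 20.8%, and GGNCCC, which covers TCP sites, in 7.32% and 7.40%. AACGG was in 19.5% and 20.6%, and AACCNNAC in 14.6% and 13.1%. AACGG is the core of a mitotic promoter element and AACCNNAC covers part of the AC elements of wall genes. Matches are a description of the letters only.

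The promoters of GER1 and FRO6 are shown because they are the highest members with an I-box, which capitals mark on either strand. They are chr1:27340045-27340294 and chr5:20204596-20204845 of TAIR10.1 from RefSeq, both on the minus strand.
GER1: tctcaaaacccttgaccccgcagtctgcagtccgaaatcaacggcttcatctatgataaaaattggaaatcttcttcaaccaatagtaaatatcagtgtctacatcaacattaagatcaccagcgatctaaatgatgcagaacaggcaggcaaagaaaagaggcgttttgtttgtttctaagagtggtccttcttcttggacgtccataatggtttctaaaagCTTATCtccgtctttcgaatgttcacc
FRO6: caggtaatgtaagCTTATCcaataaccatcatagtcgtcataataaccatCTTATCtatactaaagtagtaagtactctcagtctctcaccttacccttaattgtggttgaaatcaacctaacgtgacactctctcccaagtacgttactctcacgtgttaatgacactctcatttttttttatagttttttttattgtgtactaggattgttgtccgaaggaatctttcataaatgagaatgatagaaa
In all 16 members had an I-box. The others included CP12-2, FBA5 and FRO8 of the group of green tissue and ferric reduction. Further ones were AT2G45180 of the surface group, AAP7 and AT1G27040 of transport, and AT1G78820 without a group. The rest were 7 receptor and defence genes (AT1G51805, TIR, AT3G04210, EMB1290, PBS3, AT5G46490 and AT4G02420).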

How the data were processed

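RNA was measured in 6 libraries of Arabidopsis anthers, 3 control and 3 Fe-deficient, grouped by GEO's labels. The submitters' processing notes list Trimmomatic 0.35 and Salmon 0.12.0, with TAIR10 as genome. The deposited files, per the file headers, are Salmon tables of 41086 transcripts, in which the authors give estimated counts and TPM, a value scaled for length and library. The deposited tables also give transcript lengths, which were not used. How strand was treated in counting is unknown here, so reads of a gene and an antisense partner may be mixed, and near-identical genes may share reads.

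Estimated counts were summed per locus and divided by the library total to give CPM. For tests they were rounded. edgeR 4.0.16 (R 4.3.3) fitted all loci with TMM factors (0.884 to 1.06) after filterByExpr, group as the only term and Benjamini-Hochberg adjustment. DESeq2 1.42.0, limma 3.58.1 on log2(TPM + 1), other scalings and filters, a replicate block and each library left out were alternatives. The procedure was tested on simulated data. Simulated libraries all varied to the same degree, with none set apart from its group, so that test gives no assurance for the spread seen here. Coordinates, names and promoters are from RefSeq's TAIR10.1, in which 32341 of 33027 loci were found. No pair of libraries of a group was identical, and chi-square per degree of freedom between them was 27.7 to 133, so none was merged. In ratios, counts under 3 were set to a floor of 3 per library, which covers counting error only.

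The members and lists were chosen with earlier results of these data known. Named loci were the members on a list, the 12 highest in mean CPM, the 8 with the largest ratio to the other 4 libraries, the 4 largest and 4 smallest ratios of Fe-deficient 3 to control 3, the 3 nearest the threshold on either side and the 4 with the lowest p under the replicate block. Other loci named were chosen after their values were seen. Gene groups and annotation words were set after the values were seen.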

Additional observations from a re-analysis of the deposited data

How the results depend on the processing

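The number of members depended on the thresholds. It was 186 with 2 times in place of 3, 22 with 5 times, 98 with a minimum of 1 CPM and 53 with 5 CPM. TMM-scaled totals gave 73 loci, all among the 83, and TPM gave 94, of which 69 were among the 83. Leaving out 1 library gave 86 to 528 loci, the highest without control 3, where Fe-deficient 3 alone has to pass. List genes among the members numbered 1 with 5 times in place of 3 and 7 to 30 with 1 library left out, and the share with an I-box was 9.09% with 5 times and 16.1% to 21.4% with 1 library left out. The cause was not tested. For iron supply DESeq2 called 723 loci, and leaving out control 3 and Fe-deficient 3 together 92, against 0 with every other alternative run, and members called were 0 in all. The median log2 fold change of members was between -1.50 and 1.80 with 1 library left out. HR4 lay between -2.0 (without Fe-deficient 3) and 5.91 (without control 3), and at -0.13 with both high libraries left out. The extremes leave out either Fe-deficient 3 or control 3, and the rule set their signs in advance. The number of Fe-deficient 3 excesses of at least 2 times was 24 with TMM and 21 with TPM.

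Whether the library numbers pair the samples was left undecided. Correlations of deviations from a mean of only 3 libraries cannot settle it. Deviations from the group means of same-numbered libraries correlated at -0.18, 0.43 and -0.12 for numbers 1, 2 and 3. The value for number 2 was the highest of all pairings, and control 3 correlated best with Fe-deficient 1, at 0.15. With the replicate number as a block edgeR called 0 loci and 0 members, as without it. The members with the lowest p there were IAA7, CYP96A15, TGG2 and AT4G23680, each at an edgeR adjusted p of 0.396, with log2 fold changes of 1.05, -1.56, -1.0 and 0.66. Levels near 2 CPM rest on few counts, which limits the precision of the small regulators.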
